A study of Mus musculus with 27 samples.

Results

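The cytosolic ribosomal protein genes of the mouse retina were examined here across 4 genotypes in each of 2 sequencing runs. Members were the protein-coding genes with symbols of the form Rpl or Rps plus a number and any paralogue letters, together with Rplp0, Rplp1, Rplp2 and Rpsa, and with Rps13 and Rps15a set aside by the rule. Of 89 genes with such symbols, 6 were not annotated as coding, 2 were the genes set aside and 5 had no count in any library. This left 76 genes of the 55487 in the count table, 29 of the small subunit and 47 of the large subunit, on 19 chromosomes. The 5 genes at 0 were Rpl13, Rpl35, Rpl35a, Rps10 and Rpl10l. Other annotated genes cover 100% of the span of Rpl13, Rpl35 and Rpl35a and 98.1% of that of Rps10, and reads in overlapping genes were not counted, so these zeros say nothing of transcription. The span of Rpl10l, a gene known from testis, is covered over 0% of its length.

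Whole retinas were taken from mice aged 9 months, and each library was labelled as a separate mouse. The wildtype mice were Gne+/+ and C3+/+ (5 in run 1, 2 in run 2). The Gne+/- mice carried 1 working copy of Gne, whose product catalyses the first steps of sialic acid synthesis, with C3 intact (5 and 2). The C3-/- mice were Gne+/+ and lacked complement C3, the central protein of the complement cascade (4 and 3), and the Gne+/- C3-/- mice carried both changes (4 and 2). The labels name no promoter or Cre that would restrict the alleles to a cell type. The C3-/- alleles were brought in by a cross, and differences at other genome segments or of strain that came with them cannot be told apart from C3 loss. The design text asks whether lowered sialylation alters the retina and whether complement is needed for it. The labels give no sex. Summed over 4 genes of the Y chromosome (Kdm5d, Eif2s3y, Uty and Ddx3y), the level was at most 1.62 CPM in all 5 wildtype mice of run 1 and 471 to 583 CPM in all 4 C3-/- mice. In run 2 this was turned around, with 288 and 327 CPM in wildtype mice and at most 2.71 CPM in C3-/- mice. Within either run, C3-/- against wildtype thus cannot be told apart from sex. The Gne+/- and Gne+/- C3-/- mice were mixed in run 1 (2 of 5 and 2 of 4 above 10 CPM), and all 4 of run 2 had 245 to 339 CPM. The p-values measure the spread between these mice.

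Every cytosolic ribosome is built from a small subunit, which reads the mRNA, and a large subunit, which joins the amino acids. Most ribosomal proteins are present in about the same number as the ribosome itself. Their mRNAs belong to the TOP class, which begins with a C followed by a run of pyrimidines. Through this tract the mTOR kinase, by way of the LARP1 protein, sets how much of the mRNA is translated, so that the mRNA level and the protein made from it can part. Photoreceptors renew their outer segments throughout life and keep protein synthesis high.

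The start sites of the genes are shown first because this shared tract is the sequence feature the family is known for. RefSeq promoters (GRCm38.p6) matched 56 of the 76 genes. Each line below gives 30 bases, from 10 before the annotated start to 20 from it, in the direction of transcription, with the tract found by the search in capitals. The search looked on the coding strand only for a C followed by at least 4 bases that were each C or T, beginning within 10 bases of the annotated start.
Rps21 (chr2:180257369-180257398, plus strand): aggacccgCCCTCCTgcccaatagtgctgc
Rpl38 (chr11:114668570-114668599, plus strand): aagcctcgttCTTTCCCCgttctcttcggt
Rplp2 (chr7:141447641-141447670, plus strand): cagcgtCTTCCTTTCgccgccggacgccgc
Rpl14 (chr9:120571507-120571536, plus strand): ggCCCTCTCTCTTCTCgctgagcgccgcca
Rps9 (chr7:3704031-3704060, plus strand): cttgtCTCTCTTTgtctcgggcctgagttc
Rps6 (chr4:86857348-86857377, minus strand): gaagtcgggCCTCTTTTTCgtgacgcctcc
Rpl28 (chr7:4792955-4792984, plus strand): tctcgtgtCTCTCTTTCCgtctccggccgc
Rps3a1 (chr3:86142649-86142678, minus strand, no tract found): gccggaagggcgaaagagcaagggtcacgt

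Rps21 and Rpl14 were shown as abundant genes, Rpl38 and Rplp2 for their roles, and Rps9 as a gene that fell between runs. Every line but that of Rps3a1 holds a tract, so the lines are not a sample of the family. No tract was found in the abundant Rpl4, Rpl11 and Rpl26. Nor was there any in Rplp0, Rps3, Rpl5, Rpl10, Rpl41 and Rpsa, which are named below for their roles. Rps6 and Rpl28 were almost uncounted in run 1, and Rps3a1 is the gene that differed with C3 genotype in run 2. A tract was found in 34 of the 56 genes (60.7%), against 37.1% of 12360 other tested genes with a promoter sequence and 35.0% of 20542 promoters of all genes. With the tract required at the annotated base itself the shares were 16.1% and 3.05% of other tested genes, and with a search over 20 bases they were 78.6% and 55.0%. The sequence TATAA, searched on the coding strand between 40 and 15 bases before the start, was present in 5 of the 56 promoters (8.93%) and in 2.94% of the other tested genes. A match describes these letters and does not show that a factor acts there.

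The libraries were made with a 3′ mRNA kit (QuantSeq), in which each mRNA yields reads near its 3′ end, from 100 ng of total RNA. Library totals were 13528183 to 21276743 counts in run 1 and 14877618 to 34170608 in run 2, and 16459 to 22938 genes had a count. Levels are given as CPM, counts relative to the library's size after scaling by trimmed-mean (TMM) factors, and are not divided by length, so levels of different genes compare 3′-end counts, not molecules. Gne averaged 129 CPM ± 22.4 (SD, n = 5) in wildtype and 47.5 ± 8.36 (n = 5) in Gne+/- mice of run 1, and 51.2 and 14.7 (n = 2 each) in run 2. C3 averaged 162 CPM ± 45.8 (n = 5) in wildtype and 0.770 (n = 4) in C3-/- mice of run 1, and 72.6 (n = 2) and 1.51 (n = 3) in run 2. The rod markers Pde6b, Gnat1, Sag and Nrl all had counts in every group, with a summed level of 10141 to 15487 CPM in run 1 and 9652 to 13042 CPM in run 2. Nrl had 1474 to 2279 CPM in run 1 and 661 to 1025 CPM in run 2, and the other markers overlapped between the runs.

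The 3′-end counts of the 76 genes spanned more than 3 orders of magnitude. In run 1, the mean level was under 1 CPM for 8 genes, 1 to 10 CPM for 15, 10 to 100 CPM for 21, 100 to 1000 CPM for 29 and above 1000 CPM for 3. In run 2, the numbers in the same ranges were 4, 1, 31, 40 and 0. Fewer genes were thus at the extremes in run 2. The order of the mean levels in the runs had a Spearman correlation of 0.634 over the 76 genes, a description over genes that share libraries and depth.

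**Figure D1:**
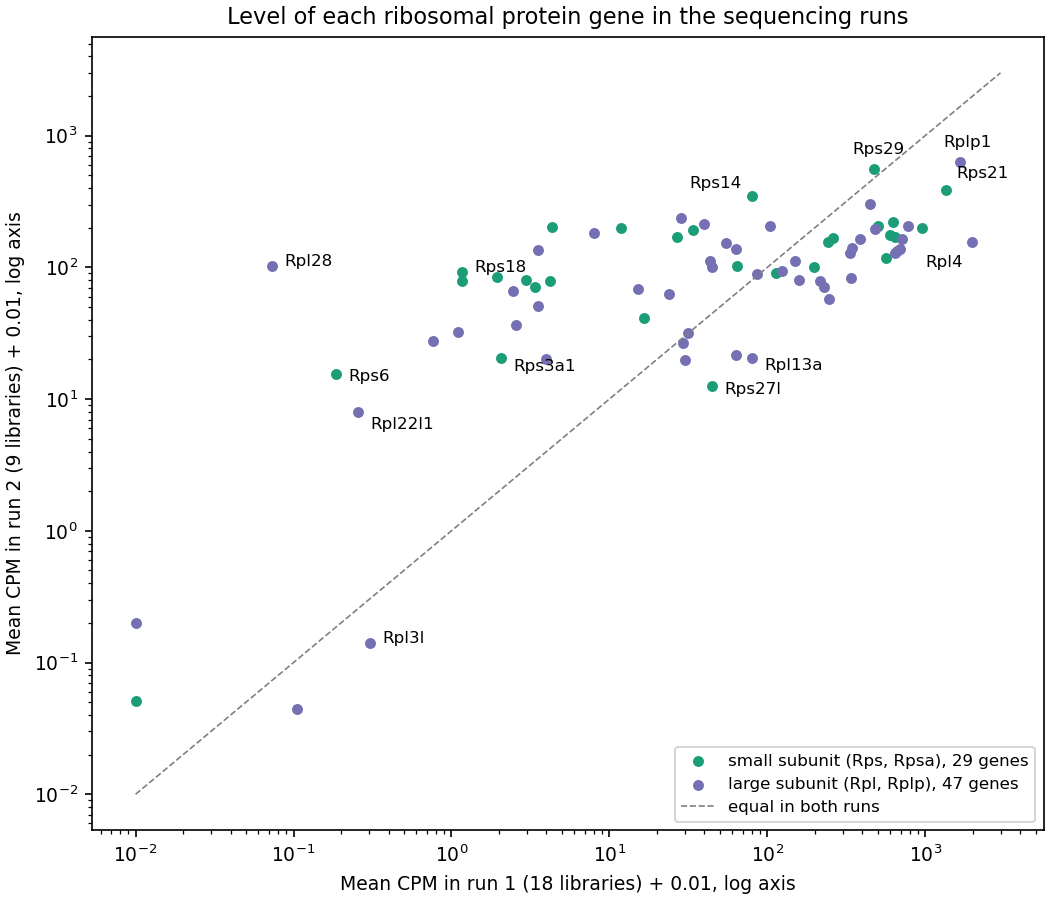
Mean level of each of the 76 ribosomal protein genes in run 1 (18 libraries, horizontal axis) and run 2 (9 libraries, vertical axis), in CPM plus 0.01 on log axes, with the small and large subunit in different colours. Genes below 10 CPM in run 1, such as Rpl28 and Rps6, lie far above the line of equal levels, whereas Rpl4 and Rps21 lie below it.

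Among small-subunit genes, Rps21 had the highest 3′-end level in wildtype retinas of run 1. Rps21 had 1477, 1427, 1399, 1403 and 1375 CPM in those 5 mice, and 409 and 407 CPM in the 2 wildtype mice of run 2. The values within each run differed little and the runs were far apart. Rps24 followed at 1074 CPM ± 189 (n = 5), and the SDs of Rps21 and Rps24 did not bring them together.

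The small-subunit genes fixed by role covered the whole range. Rps3, a protein at the mRNA entry channel, had 110.985, 329, 464, 519 and 611 CPM in the wildtype mice of run 1 and 164 and 233 CPM in run 2. Rpsa, also known as the laminin receptor, averaged 198 CPM ± 43.4 (n = 18) over run 1 and 102 ± 14.4 (n = 9) over run 2. Rps19, the gene most often mutated in Diamond-Blackfan anaemia, averaged 64.1 CPM ± 17.7 and 103 ± 13.1. These 3 genes were thus well counted in both runs.

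The next 3 were hardly counted in run 1. Rps6, the substrate of the S6 kinases, ranged from 0 to 0.894 CPM over the 18 libraries of run 1 and from 5.78 to 27.6 CPM over the 9 of run 2. Rps18 ranged from 0 to 8.76 CPM in run 1 and from 68.4 to 105 CPM in run 2. Rps27a, which is made as a fusion with ubiquitin, ranged from 0.0555 to 7.59 CPM in run 1 and from 66.5 to 114 CPM in run 2. None of these genes had overlapping ranges in the runs.

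Of the large subunit, Rpl4 had the most counts in wildtype retinas of run 1. Rpl4 had 2445, 1813, 2154, 2489 and 2283 CPM there, and 125 and 169.6 CPM in run 2. The lowest wildtype library of run 1 was above 10 times the higher of run 2. Rplp1, a protein of the ribosomal stalk, followed at 1570 CPM ± 316 (n = 5). After it came Rpl8 at 813 CPM ± 219, Rpl26 at 737 ± 129, Rpl11 at 721 ± 52.1 and Rpl14 at 681 ± 217 (n = 5 each), and these 4 did not differ beyond their spread.

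Rpl3, which lies at the peptidyl transferase centre, averaged 385 CPM ± 47.1 in run 1 (n = 18) and 164 ± 17.1 in run 2 (n = 9). Rpl5 and Rpl11, which together with 5S RNA bind Mdm2 when ribosome assembly fails, had 29.1 ± 9.09 and 716 ± 71.0 CPM in run 1. In run 2 the same genes had 26.6 ± 4.51 and 164 ± 23.8 CPM. Rpl5 therefore had close to equal levels in the runs, and Rpl11 did not.

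Rpl10, which joins the large subunit late in its assembly, averaged 2.55 CPM ± 1.80 in run 1 and 36.7 ± 12.8 in run 2. Rpl41, the smallest ribosomal protein, averaged 3.52 ± 2.15 and 137 ± 16.1 CPM. Rpl38, known for its part in the translation of Hox mRNAs, averaged 105 ± 29.6 and 206 ± 29.9 CPM. All 3 were higher in run 2.

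The 3 stalk genes, whose proteins recruit the elongation factors, differed from each other. Rplp1 averaged 1651 CPM ± 375 in run 1 and 636 ± 76.7 in run 2, where it was the highest of the 76. Rplp2 averaged 28.6 ± 17.7 CPM in run 1 and 236 ± 28.9 in run 2. Rplp0, which anchors both to the ribosome, averaged 23.8 ± 7.97 and 62.8 ± 9.36 CPM. All 3 had ranges that were apart between the runs.

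Summed over the 76 genes, ribosomal protein counts made up 1.47% to 1.96% of a library in run 1 and 0.849% to 1.14% in run 2. The summed level was 15593 to 19953 CPM in run 1 and 7621 to 10348 CPM in run 2, so the runs did not overlap. In run 1 wildtype mice averaged 18342 CPM ± 776 (n = 5) and Gne+/- mice 17534 ± 1509 (n = 5). Mice of the C3-/- group averaged 18453 ± 1008 (n = 4), and double mutants 18466 ± 1458 (n = 4). The 4 genotypes overlapped. The 5 most abundant genes of each library supplied 33.7% to 40.4% of the sum in run 1 and 21.7% to 24.8% in run 2. In whole tissue, fewer cells of a type and less RNA per cell cannot be told apart.

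**Figure D2:**
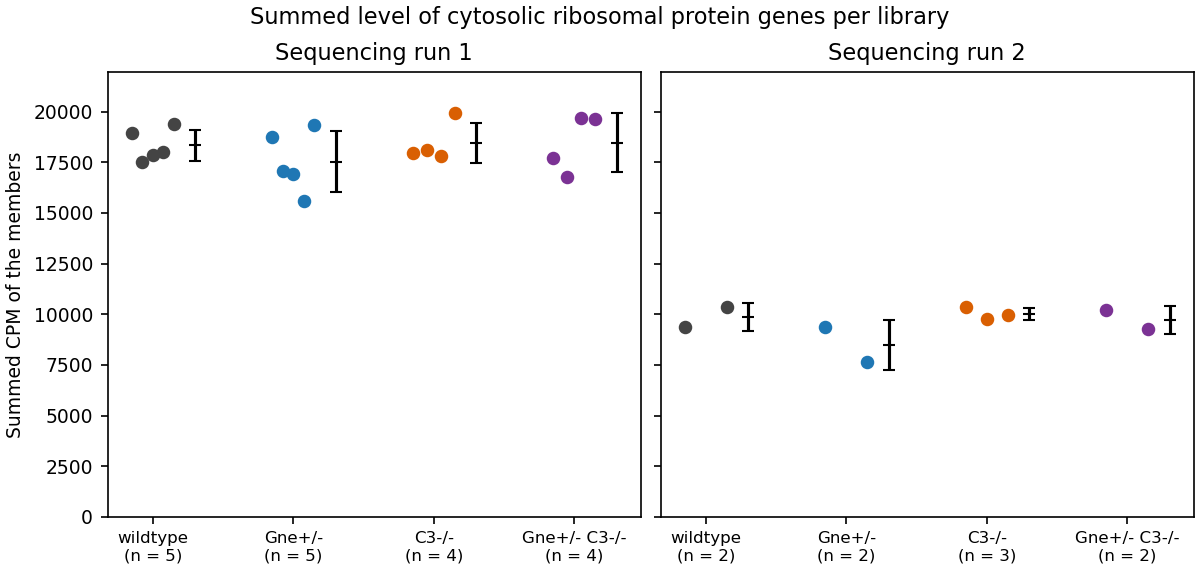
Summed CPM of the 76 genes in each library (points) by genotype, with mean and SD bars, for run 1 at the left and run 2 at the right. The genotypes overlap in run 1, all libraries of run 2 lie under those of run 1, and the lowest point of run 2 is Gne+/- mouse 8 at 7621 CPM.

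The members differed with sequencing run more often than other genes did. With the quasi-likelihood test of edgeR over all 27 libraries and a Benjamini-Hochberg adjusted p under 0.05 as the threshold, 67 of the 72 tested members (93.1%) were called between runs, against 59.5% of all 17409 tested genes. Of the members, 34 rose and 33 fell in run 2, where 30.3% of all genes rose and 29.2% fell. The change was more than 1 on the log2 scale in either direction for 57 of 72 members and for 44.4% of all genes. The medians were 0.02 for the members and 0.04 for all genes, since the 2 directions balanced. DESeq2 called 63 members and limma-voom 67. For 52 of all 76 members the ranges in the runs did not overlap, 27 being higher and 25 lower in run 2. No share of all genes is given beside the overlap, DESeq2 and limma-voom counts, so they do not set the members apart.

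Among the small-subunit genes 15 of 28 rose and 11 fell, and among the large-subunit genes 19 of 44 rose and 22 fell. Rpl37a rose by a log2 fold change of 2.44 (SE 0.09), with 31.1 to 52.7 CPM in run 1 and 165 to 256 CPM in run 2. Rps23, which sits at the decoding site, rose by 4.45 (SE 0.20), with 1.45 to 7.35 CPM and 44.7 to 83.8 CPM. Rps14, at 45.3 to 118 CPM and 228 to 396 CPM, rose by 2.13 (SE 0.11). Ranges of all 3 genes were apart.

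Rpl28 was at 0 in 16 of the 18 libraries of run 1, with at most 0.635 CPM, and at 72.0 to 149 CPM in run 2. Its fitted change of 10.62 depends on the prior count. In the other direction, Rpl4 fell by 3.67 (SE 0.12) from 1564 to 2489 CPM in run 1 to 86.8 to 209.7 CPM in run 2. Rps9 fell by 2.28 (SE 0.10), Rpl11 fell by 2.14 (SE 0.09) and Rps21 fell by 1.83 (SE 0.07), each with ranges apart. The edgeR adjusted p of Rpl4 was 6.06e-22 and that of Rps9 1.31e-19. The 5 tested members not called were Rpl5, Rpl19, Rpl36a, Rps7 and Rps29.

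The sequence near the 3′ end of many of these genes is repeated elsewhere in the genome, and the counting assigns a read by where it aligns. In the last 200 bases of the transcript, the median share of 50-base stretches found exactly, on either strand, in the transcript of another annotated gene was 38.1% for the 76 members and 0 for 14305 other tested coding genes. At least 1 such stretch was present in 48 of 76 members (63.2%) and in 10.8% of the others. The median share was 63.9% in the 34 genes that were higher in run 2 and 3.97% in the 33 that were lower. Pseudogenes were searched differently, over the whole member transcript and on the same strand only, so they do not measure sharing at the 3′ end. By that search 1036 annotated pseudogenes shared a stretch with any of 73 members, with a median of 8 per member and 119 for Rpl7a. The summed level of these pseudogenes was 485 to 692 CPM in run 1 and 153 to 211 CPM in run 2. The part of shared sequence in the run difference was not tested.

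The annotation around the genes also limits what was counted. The header of the count table names no option to keep reads that fall in overlapping genes, and 34 of the 76 members had no overlap with another gene. Other genes cover more than 50% of the span of Rpl24, which did not pass the filter on low counts, and of Rpl13a and Rps28, which did. Rpl13a averaged 79.9 CPM ± 18.4 in run 1 and 20.7 ± 3.81 in run 2. Rpl39l and Rpl3l also failed the filter, and 72 of 76 members were tested.

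With low counts filtered and run as a term, edgeR called no member in any of the 6 genotype comparisons over both runs. Without that filter it called 1 to 5 of 76 members in 5 of them, and limma-voom called Rps3a1 in 2. The unfiltered calls among all genes are given in the closing section. None is given for limma-voom or DESeq2 in the genotype comparisons, so their counts do not set the members apart. Loss of 1 Gne copy with C3 present was compared in 7 Gne+/- against 7 wildtype mice, and edgeR called 0 of 72 members and 0.00574% of all genes. At an unadjusted p under 0.05 there were 8 members (11.1%), against 5.76% of all genes. DESeq2 and limma-voom called 0. The median log2 fold change was -0.01 for members and 0.01 for all genes. Of the 72, 35 (48.6%) were positive, against 50.6% of all genes. Within 0.2 of 0 lay 37 members and 45.7% of all genes. The smallest adjusted p of a member was 0.849.

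In the Gne+/- comparison, the abundant Rps21 had the smallest standard error of the named genes. Rps21 had 1183, 1211, 1304, 1232 and 1415 CPM in the Gne+/- mice of run 1 and 365 and 294 CPM in run 2. In 6 of 7 Gne+/- mice it was below every wildtype mouse of the same run, the exception being mouse 5 of run 1. Its log2 fold change was -0.20 (SE 0.08, edgeR adjusted p = 0.849). The other 2 with the smallest p among lower values were Rpl29 at -1.78 (SE 0.71) and Rps6 at -1.50 (SE 0.64), both of under 5 CPM in each library of run 1.

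Of higher values, Rpl5 gave 0.45 (SE 0.20). Rpl5 had 15.2, 30.5, 22.2, 17.6 and 15.2 CPM in the wildtype mice of run 1 and 48.6, 30.4, 34.2, 16.7 and 29.6 CPM in the Gne+/- mice. In run 2 it had 25.4 and 22.9 CPM in wildtype and 27.5 and 19.2 CPM in Gne+/- mice. The groups overlapped in both runs. Rpl23a at 1.82 (SE 0.70) and Rpl22l1 at 2.92 (SE 1.19) were near 0 in run 1, and the value of Rpl22l1 was -0.03 without Gne+/- mouse 4, its only Gne+/- library of run 1 above 0. The summed level of 6 lens genes, of which all but Cryaa had counts in both groups, was 53.3 to 638 CPM in Gne+/- and 1.02 to 64.4 CPM in wildtype mice of run 1. Its part in these values was not tested.

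With C3 absent, loss of 1 Gne copy was again without a called member. In 6 Gne+/- C3-/- against 7 C3-/- mice, edgeR called 0 of 72 members and 0.00574% of all genes. There were 2 members (2.78%) at an unadjusted p under 0.05, against 1.35% of all genes. The median was -0.01 for members and -0.01 for all genes, and 36 of 72 (50%) were positive, against 49.0% of all genes. Rps23 gave -0.61 (SE 0.28), Rpl10a -0.79 (SE 0.38) and Rpl15 -0.29 (SE 0.17). On the other side were Rpl37a at 0.24 (SE 0.12), Rpl37 at 0.28 (SE 0.15) and Rpl22l1 at 2.29 (SE 1.20). DESeq2 and limma-voom also called 0.

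Whether the Gne effect differed with C3 genotype was tested as an interaction, for which edgeR called 0 of 72 members and 0% of all genes. At an unadjusted p under 0.05 there were 3 members (4.17%), against 3.18% of all genes, and DESeq2 and limma-voom called 0 members. The members with the smallest p were Rps23 at -0.99 (SE 0.38), Rps2 at -1.26 (SE 0.53) and Rps18 at -1.95 (SE 1.18), and in the positive direction Rpl37 at 0.44 (SE 0.21), Rpsa at 0.32 (SE 0.20) and Rpl31 at 0.37 (SE 0.24). The median was 0.06 for members and -0.01 for all genes.

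Mice without C3 were then set against mice with it, and over both runs the members had small positive medians. In C3-/- against wildtype mice (7 each) edgeR called 0 of 72 members and 0.167% of all genes, and 3 members (4.17%) had an unadjusted p under 0.05, against 4.49% of all genes. DESeq2 called 0 and limma-voom 1, Rps3a1. Of the 72 members 50 (69.4%) were positive, against 49.3% of all genes. The median was 0.06 for members and -0.01 for all genes. In run 1 alone the medians were 0.06 and -0.03, and in run 2 alone both were 0.03. Rpl5 gave 0.56 (SE 0.20, edgeR adjusted p = 0.693). Its 4 C3-/- mice of run 1 had 34.3, 29.1, 35.5 and 28.0 CPM and the 3 of run 2 had 32.3, 33.9 and 24.6 CPM, and 3 of these 7 libraries were within the wildtype range of their run.

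The other named members of that comparison were smaller or noisier. Rps9 gave 0.24 (SE 0.11) and Rps3a1 2.09 (SE 0.85, edgeR adjusted p = 0.924). Rpl22 gave -0.19 (SE 0.12), Rpsa -0.20 (SE 0.14) and Rpl10 -0.70 (SE 0.51).

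Gne+/- C3-/- mice were next set against Gne+/- mice (6 and 7). edgeR called 0 of 72 members and 0.19% of all genes, with 4 members (5.56%) at an unadjusted p under 0.05, against 6.399% of all genes. DESeq2 and limma-voom called 0. The median of 0.14 was the furthest from that of all genes (-0.01), and 55 of the 72 (76.4%) were positive, against 49.3% of all genes. In run 1 alone the medians were 0.10 for members and -0.02 for all genes. In run 2 alone, with 2 mice in each group, they were 0.19 and -0.01. Rpl37 had 457, 337, 439, 212 and 532 CPM in the Gne+/- mice of run 1 and 474, 375, 691 and 713 CPM in the double mutants. In run 2 it had 279 and 240.1 CPM against 335 and 337 CPM. The groups overlapped in run 1 and not in run 2, and the log2 fold change was 0.47 (SE 0.15, edgeR adjusted p = 0.515). Rpl38 gave 0.40 (SE 0.18) and Rpl31 0.37 (SE 0.17). In the other direction, Rps23 gave -0.66 (SE 0.28), Rpl7a -0.96 (SE 0.55) and Rpl27 -0.95 (SE 0.57).

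Double mutant against wildtype mice (6 and 7) completed the set. edgeR called 0 of 72 members and 0.155% of all genes, with 7 members (9.72%) at an unadjusted p under 0.05, against 4.96% of all genes. DESeq2 called 0 and limma-voom 1, again Rps3a1. The median was 0.07 for members and -0.01 for all genes. In run 1 alone the member median was 0.09, with 46 of 69 positive, and in run 2 alone -0.02, with 33 of 73 positive. Rpl5 gave 0.56 (SE 0.21), Rpl23a 2.00 (SE 0.73) and Rpl41 0.94 (SE 0.35), and lower values were those of Rpl10a at -0.71 (SE 0.38), Rpl29 at -1.11 (SE 0.72) and Rpl10 at -0.81 (SE 0.53). These comparisons share groups, so the recurrence of a gene such as Rpl5 is not independent.

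**Figure D3:**
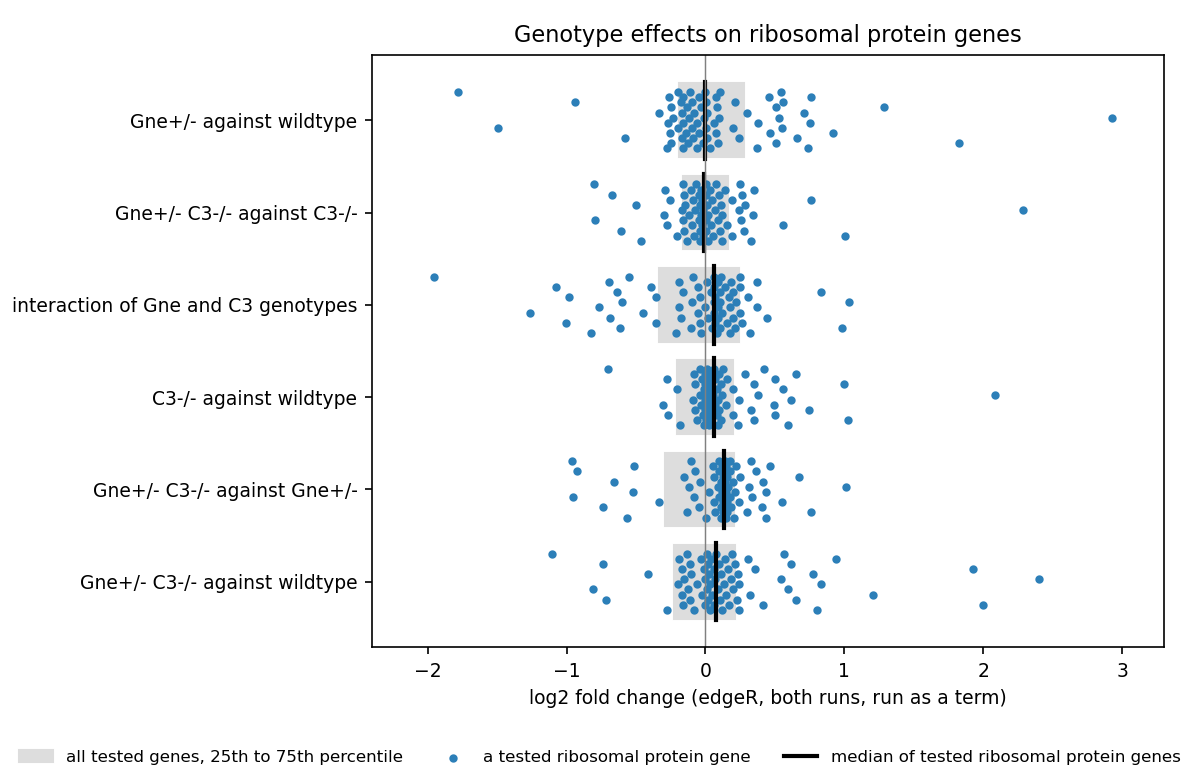
Fitted log2 fold change of each of the 72 tested ribosomal protein genes (points) in the 6 genotype comparisons, with their median (black line) and the 25th to 75th percentile of all 17409 tested genes (grey). The medians lie between -0.01 and 0.14, and most points lie within the grey bands or near them.

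Within the runs, several comparisons had member medians of opposite sign. Gne+/- C3-/- against C3-/- had 0.02 in run 1 and -0.06 in run 2. Gne+/- C3-/- against wildtype had 0.09 and -0.02, and the interaction -0.03 and 0.13. The same held for the Gne+/- comparison. In run 1 alone the median was 0.09 for members and 0.02 for all genes, with 41 of 69 tested members positive. In run 2 alone it was -0.22 for members and 0.02 for all genes, with 10 of 73 members positive. The summed rod markers Pde6b, Gnat1, Sag and Nrl were 9652 and 9814 CPM in the Gne+/- mice of run 2, below the other 7 libraries of that run. Its wildtype mice had 11437 and 11929 CPM. Taken singly in run 2, Gnat1 and Sag were lower in Gne+/- than in wildtype mice, and Pde6b and Nrl overlapped. Gnat1 was at 4420 to 4644 CPM in Gne+/- mice and lower in the double mutants, at 4061 to 4334 CPM. The part of the rod markers in the result was not tested. In run 2 edgeR called 0 members and 0.00531% of all genes, and 15 members (20.5%) had an unadjusted p under 0.05, against 6.04% of all genes. DESeq2 called 0 there and had 13 at an unadjusted p under 0.05. No share of all genes is given beside that 13, so it does not set the members apart. Tested as a difference between runs, the Gne+/- effect was called for 0 of 72 members and 0.0115% of all genes by edgeR, with 4 members (5.56%) at an unadjusted p under 0.05, against 4.53% of all genes. Rps23 had the smallest p, at -1.62 (SE 0.51, edgeR adjusted p = 1.00).

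The run 2 median moved with single libraries. It was -0.08 without Gne+/- mouse 8, -0.10 without wildtype mouse 8, -0.34 without Gne+/- mouse 7 and -0.28 without wildtype mouse 7. The summed level of Gne+/- mouse 8 was 7621 CPM, the lowest of run 2. In that mouse 5 of 72 tested members were above their run median, against 23 in Gne+/- mouse 7. Wildtype mice 7 and 8 had 27 and 50, and double mutants 7 and 8 had 43 and 19. C3-/- mice 7, 8 and 9 had 49, 41 and 31. No share of all genes is given beside these counts. The wildtype mice of run 2 averaged 9856 CPM ± 681 (n = 2) and the Gne+/- mice 8497 ± 1239 (n = 2). The C3-/- mice averaged 10019 ± 300.5 (n = 3), and the double mutants 9726 ± 678 (n = 2). The gene whose mean CPM rose most from run 1 to run 2 took 4.53% of the counts of Gne+/- mouse 8. It took 4.58% of those of C3-/- mouse 8, whose summed level was 9760 CPM. With 2 mice in a group, a mouse that stands apart cannot be told apart from a genotype effect.

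The other effects were also tested for a difference between runs. edgeR called 0 of 72 members for C3-/- against wildtype (0.0172% of all genes), 0 for Gne+/- C3-/- against C3-/- (0% of all genes), 0 for Gne+/- C3-/- against Gne+/- (0.00574% of all genes) and 0 for Gne+/- C3-/- against wildtype (0.00574% of all genes). At an unadjusted p under 0.05 there were 1 (1.39%), 0, 4 (5.56%) and 5 (6.94%) members, in that order, against 4.22%, 2.43%, 4.15% and 4.38% of all genes. For C3-/- against wildtype the member with the smallest p was Rps3a1, with a difference of 3.87 (SE 1.40, edgeR adjusted p = 1.00).

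In run 2, Rps3a1 separated the mice by C3 genotype. Rps3a1 (chr3:86137940-86142702, minus strand) encodes a small-subunit protein near the mRNA exit. In run 2 it had 0.494 and 2.15 CPM in wildtype mice, 3.89 and 3.94 CPM in Gne+/- mice, 30.6, 40.3 and 35.4 CPM in C3-/- mice, and 37.2 and 29.4 CPM in Gne+/- C3-/- mice. All 5 mice without C3 were above all 4 with it. In run 1 the range over all 18 libraries was 0 to 4.61 CPM, and the 4 genotypes overlapped.

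In run 2 alone, 73 members were tested and Rps3a1 was the only one called. C3-/- against wildtype gave a log2 fold change of 4.76 (SE 0.44, edgeR adjusted p = 3.95e-07), where 1 of 73 members and 0.149% of all genes were called. Gne+/- C3-/- against Gne+/- gave 3.08 (SE 0.41, edgeR adjusted p = 0.000283), with 1 of 73 and 0.0584%. Gne+/- C3-/- against wildtype gave 4.67 (SE 0.45, edgeR adjusted p = 2.74e-06), with 1 of 73 and 0.0797%. DESeq2 gave 4.77 (SE 0.42), 3.08 (SE 0.43) and 4.68 (SE 0.45). Y-linked genes were low in the C3-/- mice and high in the other 3 groups of run 2, so the last 2 comparisons were between mice alike in that. With each library of run 2 left out in turn, the values were 4.05 to 6.16, 2.91 to 3.24 and 3.96 to 6.07, and the largest adjusted p values were 9.33e-06, 0.0469 and 2.83e-05. Where this leaves 1 library in a group, that library is assumed to vary like the other groups. Without wildtype mouse 8, edgeR also called Rps3a1 for Gne+/- against wildtype (2.99, SE 0.49, adjusted p = 0.000206), together with Rpl10, Rpl28 and Rpl23a. These were 4 of 74 members, where 3.71% of all genes were called, against 0.00531% with that mouse kept. In the same fit edgeR called Rps3a1 and Rpl23a for the interaction (2.1% of all genes) and for C3-/- against wildtype (4.11%), and Rps3a1, Rpl10, Rpl28 and Rpl23a for Gne+/- C3-/- against wildtype (4.22%). Without Gne+/- mouse 7, it also called Rps20, Rps26 and Rpl4 for Gne+/- C3-/- against Gne+/-, which made 4 of 74 members and 0.121% of all genes.

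In run 1 alone, edgeR called 0 of 69 members for C3-/- against wildtype (0.178% of all genes), 0 for Gne+/- C3-/- against Gne+/- (0.231%) and 0 for Gne+/- C3-/- against wildtype (0.166%). The members at an unadjusted p under 0.05 numbered 2 (2.90%), 2 (2.90%) and 7 (10.1%), against 4.63%, 5.81% and 4.15% of all genes. Rps3a1 there gave 0.86 (SE 0.96, edgeR adjusted p = 1).

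A processed pseudogene of Rps3a1 showed the opposite pattern in run 1. Gm8960 (chr10:115599026-115600328), named here after its values were seen, shares 50-base stretches with Rps3a1. In run 1 it had 103, 67.0, 87.3, 108 and 70.04 CPM in wildtype mice, 45.0, 60.5, 64.8, 95.8 and 80.4 CPM in Gne+/- mice, 16.5, 23.7, 31.6 and 44.7 CPM in C3-/- mice, and 26.95, 24.8, 16.4 and 14.5 CPM in Gne+/- C3-/- mice. All 8 mice without C3 were below all 10 with it, the nearest values being 44.7 and 45.0 CPM. In run 2 no library was above 2.85 CPM.

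In run 1 alone, Gm8960 changed by -1.59 (SE 0.27, edgeR adjusted p = 0.00503) for C3-/- against wildtype, by -1.76 (SE 0.27, edgeR adjusted p = 0.00159) for Gne+/- C3-/- against Gne+/-, and by -2.06 (SE 0.27, edgeR adjusted p = 0.000194) for Gne+/- C3-/- against wildtype. Over both runs the first was -1.63 (SE 0.42, edgeR adjusted p = 0.222). The same comparison was past the threshold in DESeq2 (adjusted p = 0.0370), limma-voom (adjusted p = 4.25e-07) and edgeR without a filter on low counts (adjusted p = 6.93e-11). In run 1 the Y-linked genes also separated C3-/- from wildtype mice completely, and their level was mixed in the other groups.

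The sequences below show how alike the gene and the pseudogene are. Over the last 200 coding bases they differ at 6 positions. The 40 bases printed here, from GENCODE vM21 transcripts on GRCm38, read in the direction of transcription and include 2 of the differences, in capitals. Counted from 1 at the 5′ end of the window, they are A19T and G23A, with the base of Rps3a1 first.
Rps3a1 (chr3:86138027-86138066, minus strand): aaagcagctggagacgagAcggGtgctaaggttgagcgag
Gm8960 (chr10:115599064-115599103, minus strand): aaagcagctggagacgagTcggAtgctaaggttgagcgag

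Rps3a1 and its 9 annotated pseudogenes that share a stretch were also summed. In run 1 the sum was 52.7 to 121 CPM in the 10 mice with C3 and 22.6 to 55.8 CPM in the 8 without. In run 2 it was 0.948 to 8.06 CPM in the 4 with C3 and 31.4 to 42.1 CPM in the 5 without. The direction thus differed between the runs. With the copies added to each member, a setting chosen after these values were seen, Rps3a1 was lower without C3 in run 1 alone (-1.42, SE 0.24, edgeR adjusted p = 0.00489, for C3-/- against wildtype). In run 2 alone it was 3.43 (SE 0.63, edgeR adjusted p = 0.182), 2.39 (SE 0.61, adjusted p = 0.826) and 3.37 (SE 0.65, adjusted p = 0.370) for the comparisons in the order above, none past the threshold. Whether reads of 1 transcript were assigned to different loci was not tested.

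**Figure D4:**
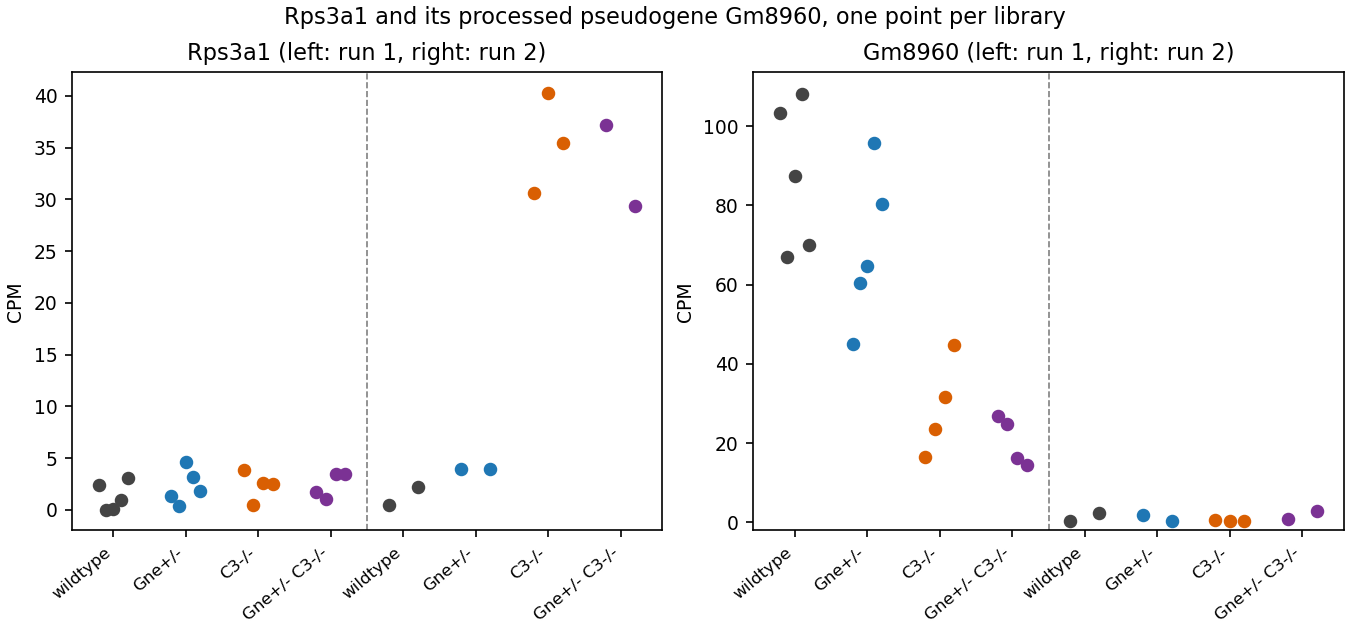
CPM of Rps3a1 (left) and of its processed pseudogene Gm8960 (right) in every library, by genotype, with run 1 to the left and run 2 to the right of each dashed line. Rps3a1 is at 29.4 CPM or more only in the run 2 mice without C3, and Gm8960 is at 45.0 CPM or more only in the run 1 mice with C3.

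Several ribosomal protein genes have a paralogue that is used in particular tissues. Rpl22l1, the paralogue of Rpl22, was above 0 in 4 of 18 libraries of run 1 and reached 6.13% ± 1.02 (SD, n = 9) of the Rpl22 level in run 2. The run 2 ratio was 5.81% ± 1.04 in wildtype mice, 5.99% ± 1.71 in Gne+/- mice, 5.71% ± 0.644 with C3 lost and 7.23% ± 0.520 in double mutants, which differed by about the spread within groups. Rpl22 itself ranged from 255 to 430 CPM in run 1 and from 96.7 to 156 CPM in run 2.

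Rps27l, a paralogue of Rps27 that is known as a p53 target, had 512% ± 419 (n = 18) of the level of Rps27 in run 1 and 6.50% ± 1.76 (n = 9) in run 2. Rps27 ranged from 3.38 to 24.5 CPM in run 1 and from 139 to 249 CPM in run 2, and Rps27l from 18.7 to 66.3 CPM and from 8.89 to 17.5 CPM. The pair therefore changed order between runs in all libraries. Rpl7l1 had 6.21% ± 2.43 of the level of Rpl7 in run 1 and 10.3% ± 2.75 in run 2. Rpl39l, known from testis, had at most 0.992 CPM, and Rpl3l, known from striated muscle, at most 2.26 CPM. Rps4l is not annotated as coding and had no count.

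Mice of 1 genotype differed most in a few genes of run 1. Among the 50 members with a mean above 20 CPM there, the SD of log2 levels within genotypes had a median of 0.33 and ranged from 0.10 for Rps21 to 1.32 for Rps28, a small-subunit protein near the mRNA exit. Rpl27 had 1.13 and Rpl9 1.08. In run 2 the median over 68 members was 0.22 and the highest 0.54. Rps28 had 10.9, 80.5, 24.6, 9.88 and 6.69 CPM in the wildtype mice of run 1 and 120.3, 62.7, 39.0, 10.4 and 5.78 CPM in the Gne+/- mice. It had 70.1, 27.9, 19.9 and 9.44 CPM in C3-/- mice and 24.4, 26.8, 27.8 and 28.8 CPM in the double mutants. The spread was thus wide in 3 genotypes and narrow in the 4 double mutants, a difference that was not tested.

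Rps3 was low in 4 libraries of run 1, at 110.985 CPM in wildtype mouse 6, 202 CPM in Gne+/- mouse 5, and 183 and 299 CPM in double mutants 6 and 5. The other 14 libraries had 329 to 889 CPM. The summed rod markers Pde6b, Gnat1, Sag and Nrl of those 4 were 15487, 14716, 14729 and 14670 CPM, in the same order, the 4 highest of run 1. The next was Gne+/- mouse 1 at 13821 CPM, in which Rps3 had 661 CPM. The part of tissue makeup in these values was not tested. Rps21 ranged from 1183 to 1490 CPM over the same 18 libraries.

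**Figure D5:**
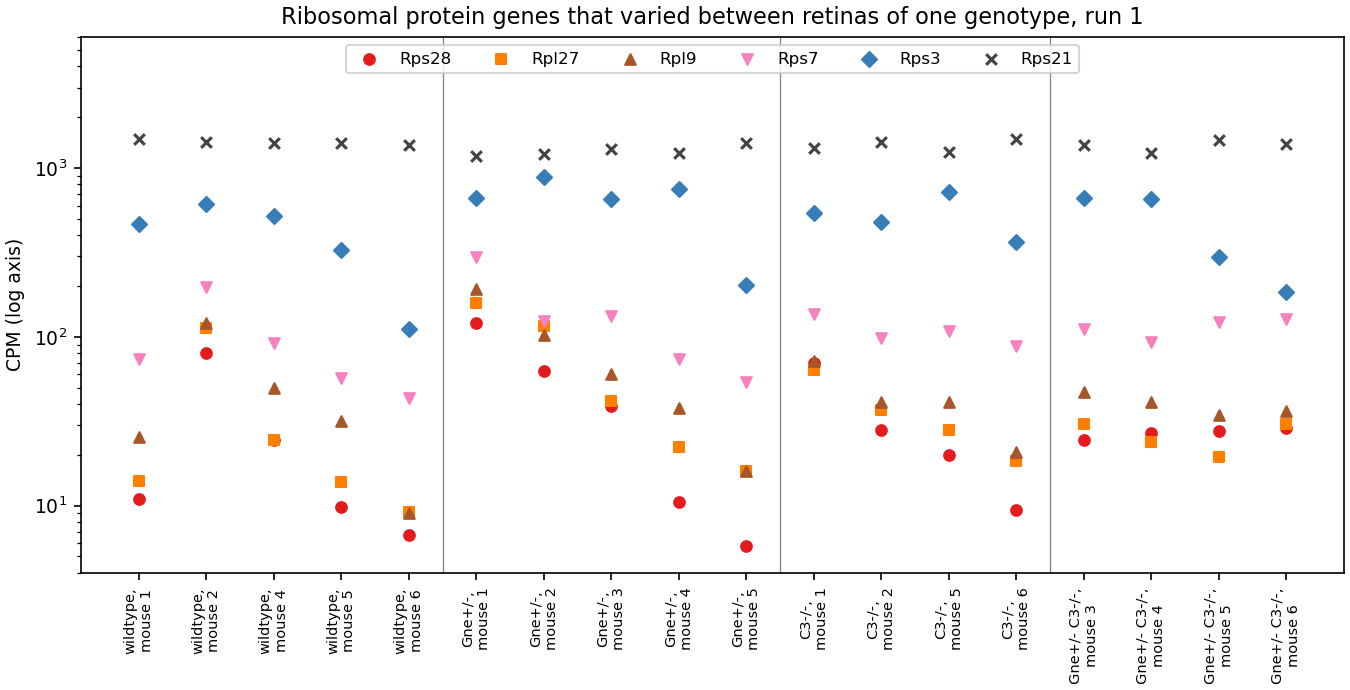
CPM (log axis) of 6 ribosomal protein genes in each of the 18 run 1 libraries, grouped by genotype. Rps28, Rpl27 and Rpl9 each span more than 1 order of magnitude, from 5.78 to 120.3 CPM for Rps28, whereas Rps21 stays between 1183 and 1490 CPM. Rps7 and Rpl9 were chosen for the plot after their values were seen.

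Other genes of ribosome production and its control were counted alongside. In each of the 6 lists of such genes, edgeR called 0 genes in every genotype comparison over both runs, where it called at most 0.19% of all genes. Of the other ribosome components, Rack1, a scaffold on the small subunit, averaged 490 CPM ± 69.8 in run 1 (n = 18) and 144 ± 14.2 in run 2 (n = 9), and Fau, the precursor of a small-subunit protein fused to a ubiquitin-like protein, averaged 11.7 ± 3.49 and 103 ± 10.7. Between runs 1 of 3 tested genes of this list rose and 2 fell. Of all 17409 tested genes, 30.3% rose and 29.2% fell, and the counts of the lists below stand beside these shares.

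Of 20 translation factors with TOP mRNAs, 5 rose and 13 fell in run 2. Eef1a1, the elongation factor that brings tRNA, averaged 2.20 CPM ± 2.28 in run 1 and 51.3 ± 9.74 in run 2, whereas Eef2, the translocase, averaged 843 ± 181 and 716 ± 73.5 and was not called. In the Gne+/- comparison the list had no gene at an unadjusted p under 0.05, against 5.76% of all genes. Its median there was 0.01.

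Of 35 ribosome biogenesis genes, 13 rose and 10 fell in run 2, where 30.3% of all genes rose and 29.2% fell. Of 72 tested mitochondrial ribosomal protein genes 18 rose and 43 fell. The mitochondrial list had 8 genes at an unadjusted p under 0.05 in the Gne+/- comparison, against 5.76% of all genes. Its median there was -0.05, and that of all genes 0.01. Of 21 genes of mTOR signalling and TOP control, 8 rose and 8 fell between runs, and of 15 of the eIF2 stress pathway 7 rose and 5 fell. Atf4, the transcription factor of that pathway, gave 0.34 for C3-/- against wildtype (edgeR adjusted p = 0.530).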

How the data were processed

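Libraries of 27 retinas were analysed from the raw read counts per gene that the authors deposited. Per the submitters' processing notes, reads were aligned with STAR 2.7.3a to GRCm38 (mm10). Per the file headers, counts came from featureCounts 2.0.3 with Ensembl 101 annotation, over exon and gene features (introns included), with no option for strand, multi-mapped reads or overlapping genes. The submitters' notes also name Subread 2.0.0. Read lengths are not given in the sources used here. The 27 count columns were each matched to a sample by its label, and 0 columns were left unused. Symbols were matched for 55141 of 55487 gene identifiers.

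Groups were the 4 labelled genotypes. Genes were kept by filterByExpr (minimum count 10), which left 17409, and tested with edgeR 4.0.16 (R 4.3.3, robust quasi-likelihood, TMM factors) with sequencing run as a term and 22 residual degrees of freedom. The p-values were adjusted by the Benjamini-Hochberg method over all genes tested, with 0.05 as threshold. Fits within each run, and a test of the difference between runs over the 8 combinations of genotype and run, used the same settings. The test procedure was checked on simulated data. Alternatives were DESeq2 1.42.0, limma-voom (limma 3.58.1), other scalings and filters, pseudogene counts added, terms for Y-linked genes or mouse number, and each library left out. The common biological coefficient of variation was 55.1%, and depth limits genes near 1 CPM.

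Members and gene lists were chosen with earlier results of these data known. Named members were the 8 highest and 5 lowest tested genes in wildtype retinas of run 1, the called genes or else the 3 with the smallest p in each direction of a genotype comparison, the 4 with the smallest p in each direction between runs, and a set fixed by role. No table of protein sequences was used here. A few genes are not reported here by name, and 1 of them is left out of the summed rod markers. Of 38 pairs of libraries of 1 genotype and run, none was closer than a chi-square of 10.2 per degree of freedom, so none was treated as a repeat.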

Additional observations from a re-analysis of the deposited data

Results flagged for a closer look

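Within groups of 4 or 5 libraries of run 1, a library was listed here when its gap to the nearest other value exceeded Dixon's 95% critical value relative to the range. This listed 21 values, from 180 groups of the named members and from the summed levels. The genes share libraries, and a group with 1 library above 0 is always listed. The 21 are therefore not set against a number given by chance. Groups of run 2 were too small. The values are given without explanation.

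In Gne+/- mouse 5 several abundant genes stood apart from the 4 other Gne+/- mice. Rpl31 was at 943 CPM (others 433 to 485), Rpl8 at 924 (568 to 646), Rpl14 at 883 (472 to 584), Rpl26 at 788 (575 to 606) and Rpsa at 278 (160.3 to 182). Rps9 was lower there, at 437 CPM (596 to 627). In Gne+/- mouse 1, Rplp0 was at 46.7 CPM (13.2 to 19.9), Rps18 at 8.76 (0 to 0.827), Rps4x at 7.34 (0 to 1.07) and Rpl28 at 0.493 (0 in the others). In Gne+/- mouse 4, Rpl22l1 was at 2.83 CPM (0 in the others).

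In wildtype mouse 2, Rpl27 was at 113 CPM (9.13 to 24.4), Rps28 at 80.5 (6.69 to 24.6) and Rplp2 at 39.6 (8.04 to 13.9). In wildtype mouse 1, Rps6 was at 0.894 CPM (0.0567 to 0.154). In C3-/- mouse 6 the summed level of the 76 genes was 19953 CPM (17792 to 18111) and Rpl22 was at 322 CPM (305 to 308). In C3-/- mouse 1, Rpl23a was at 1.54 CPM (0 to 0.143), and in C3-/- mouse 5, Rpl38 was at 75.3 CPM (116 to 117). In Gne+/- C3-/- mouse 6, Rpl28 was at 0.635 CPM (0 in the others) and Rpl29 at 2.40 (0.233 to 0.276).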

How the results depend on the processing

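Without a filter on low counts edgeR called 4 members for Gne+/- against wildtype, 1 for the interaction, 2 for C3-/- against wildtype, 4 for Gne+/- C3-/- against Gne+/- and 5 for Gne+/- C3-/- against wildtype, where the filtered fit called 0. Of all 29460 genes, the unfiltered fit called 72, 30, 91, 306 and 118 in that order. limma-voom called 1 each for C3-/- and for Gne+/- C3-/- against wildtype. Run 2 alone gave 1 for C3-/- against wildtype, 1 for the double mutant against wildtype and 1 for it against Gne+/-, and a median of -0.22 for Gne+/- against wildtype.

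For a different effect in the runs, the filtered edgeR fit called 2, 3, 0 and 1 of all genes (Gne+/- against wildtype, C3-/- against wildtype, Gne+/- C3-/- against C3-/-, Gne+/- C3-/- against Gne+/-). Alternatives chosen after seeing the data gave, in that order, 15, 25, 2 and 5 (DESeq2), 0, 16, 8 and 7 (limma-voom), and 30, 35, 17 and 75 without a filter, of which members were 1, 2, 0 and 1. The unfiltered fit also called 35 genes for Gne+/- C3-/- against wildtype, 4 of them members (Rps3a1, Rpl28, Rps15 and Rpl23a), and 25 for the interaction, 1 of them a member (Rps18).

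Signs turned in these cases, none past the threshold in the filtered fit. With pseudogene copies added, a setting chosen after seeing the data, Rps3a1 was at -0.24 for C3-/- against wildtype, and Rpl5 at -0.012 and Rpl29 at 0.14 for Gne+/- against wildtype. With no run term, Rpl10 was at 0.057 for C3-/- against wildtype, Rpl37a at -0.014 for Gne+/- C3-/- against C3-/- and Rps23 at 0.41 for Gne+/- C3-/- against Gne+/-. With limma-voom, Rps23 was at 0.18 in that comparison and at 0.18 for the interaction, and Rpl22l1 at -0.080 for Gne+/- against wildtype. In run 2 alone, Rps23 (0.40) and Rpl27 (0.24) turned for Gne+/- C3-/- against Gne+/-, Rpl41 (-0.093) for Gne+/- C3-/- against wildtype, Rpl22l1 (-0.12) and Rpl5 (-0.038) for Gne+/- against wildtype, and Rps23 (0.42), Rps2 (0.13) and Rps18 (0.050) for the interaction. With each library left out, Rpl22l1 ranged from -0.028 to 3.51 for Gne+/- against wildtype. The cause was not tested.

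Samples were not paired by mouse number in the main fit, and whether some numbers mark paired mice was not tested. Deviations of same-numbered libraries in a run correlated at -0.08 to 0.39 (31 pairs, median 0.01, 9 over 0.1), and 9 of 26 libraries correlated best with their own number. With the mouse number as a replicate block, 0 members were called in each genotype comparison, and the median was -0.03 for Gne+/- against wildtype. Protein sequence features were not run.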
